A study of Mus musculus with 27 samples.

Results

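The genes described here are 8 genes of bone matrix and of the osteocyte, the cell that an osteoblast becomes once it is buried in bone. They are Dmp1, Ibsp, Spp1, Mepe and Dspp, which encode the SIBLING proteins (small integrin-binding ligand N-linked glycoproteins), and Phex, Sost and Pdpn, which are used as osteocyte markers. They were taken by name, and each gene is represented by its brightest probe set among those annotated to 1 gene symbol, with its other such probe sets as a check. Of the 8 genes, 7 had such a probe set, and all 7 were among the 15711 genes tested, of 18193 genes represented. Spp1, the gene of osteopontin, was not analysed here.

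The study measured RNA of KUSA4b10, a mouse marrow stromal cell line that can take on osteoblast features, on 27 Affymetrix arrays with 3 arrays in each of 9 groups. Cells were left without added peptide, as the control, or were given PTH(1-34) at 10 nM or PTHrP(1-141) at 20 nM, and were collected after 1, 6 or 24 h. All groups come from 1 cell line, and no genotype or other agent is named for any group. Doses and peptide lengths differ, so ligand, length and dose cannot be told apart in a comparison of PTHrP with PTH. Nothing in the labels states that the 3 replicates of a group were grown separately, and the p-values therefore reflect the spread among arrays that may differ only technically.

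SIBLING proteins are acidic, heavily phosphorylated secreted proteins that bind integrins through an RGD motif and bind hydroxyapatite, and their genes lie together in 1 cluster. Osteoblasts and osteocytes secrete them into the matrix, where some favour and others hold back mineral deposition. Parathyroid hormone (PTH) and parathyroid hormone-related protein (PTHrP) act on cells of the osteoblast lineage through a shared G protein-coupled receptor, the product of Pth1r, which raises cyclic AMP. In the RefSeq gene table of GRCm38.p6, the cluster lies on chromosome 5 in the order Dspp, Dmp1, Ibsp, Mepe and Spp1, while Phex lies on chromosome X, Sost on chromosome 11 and Pdpn on chromosome 4.

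Promoters are shown for the 4 genes that passed the test with a ligand, because 3 of them fell and 1 rose. Each line gives the 250 bases before an annotated start, 5' to 3' on the gene's strand, from RefSeq on GRCm38.p6. Dmp1 has 2 annotated starts, and its windows are chr5:104197325-104197574 and chr5:104202367-104202616 on the plus strand. The Ibsp window is chr5:104299037-104299286 on the plus strand, the Phex window chrX:157415287-157415536 on the minus strand, and the Pdpn window chr4:143299565-143299814 on the minus strand. Capitals mark matches, on either strand, to 7 short motifs, which did not overlap one another in these windows: the CRE core TGACG, the AP-1 site TGANTCA, the RUNX core TGTGGT, the CCAAT box CCAAT, the E-box CACGTG, the homeodomain core TAATTA and the TATA box TATAAA.
Dmp1, start 1: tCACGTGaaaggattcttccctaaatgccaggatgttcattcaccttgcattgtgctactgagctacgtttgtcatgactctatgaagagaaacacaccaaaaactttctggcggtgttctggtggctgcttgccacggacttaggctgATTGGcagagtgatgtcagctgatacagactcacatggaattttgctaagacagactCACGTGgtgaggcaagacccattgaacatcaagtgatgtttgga
Dmp1, start 2: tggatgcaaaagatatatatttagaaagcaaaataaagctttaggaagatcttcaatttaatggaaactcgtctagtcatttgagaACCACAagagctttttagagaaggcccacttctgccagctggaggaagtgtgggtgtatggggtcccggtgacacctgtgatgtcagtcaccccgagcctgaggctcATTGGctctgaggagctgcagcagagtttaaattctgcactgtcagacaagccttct
Ibsp: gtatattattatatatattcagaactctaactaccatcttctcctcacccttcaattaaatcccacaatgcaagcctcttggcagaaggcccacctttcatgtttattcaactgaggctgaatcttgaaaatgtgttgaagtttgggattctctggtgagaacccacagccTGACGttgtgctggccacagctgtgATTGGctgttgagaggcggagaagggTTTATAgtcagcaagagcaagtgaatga
Phex: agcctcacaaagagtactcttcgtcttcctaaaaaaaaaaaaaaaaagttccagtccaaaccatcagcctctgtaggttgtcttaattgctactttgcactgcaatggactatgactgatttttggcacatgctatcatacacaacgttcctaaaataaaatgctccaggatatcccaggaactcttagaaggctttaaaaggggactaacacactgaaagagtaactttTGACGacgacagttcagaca
Pdpn: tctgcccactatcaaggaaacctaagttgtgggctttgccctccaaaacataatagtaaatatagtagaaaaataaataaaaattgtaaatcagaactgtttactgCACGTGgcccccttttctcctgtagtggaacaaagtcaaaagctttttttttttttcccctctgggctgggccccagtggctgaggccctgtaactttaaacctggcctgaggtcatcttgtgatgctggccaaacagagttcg

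The CCAAT box was matched, on the other strand, at base -101 before the first Dmp1 start, at -57 before the second and at -54 before the Ibsp start. That motif was also in the windows of Mepe, at -21, and Sost, at -56, and was in 33.8% of the 32851 RefSeq windows of this length. The CRE core, the short core of sites that bind cyclic AMP response factors, was matched at -79 in Ibsp, at -20 in Phex and at -152 in Sost, against 17.8% of all windows. The E-box was matched at -249 and -44 before the first Dmp1 start and at -144 in Pdpn, so it was held by a gene that fell and by the gene that rose, against 6.02% of windows. The RUNX core, which binds the osteoblast factor Runx2, was matched at -164 before the second Dmp1 start and at -118 and -80 in Mepe, against 14.0%. The TATA box was matched at -28 in Ibsp and at -173 in Mepe (12.4% of windows), and the homeodomain core at -208 in Mepe (4.84%). No AP-1 site was matched in the windows of the 6 members with an entry, against 6.75% of all windows. Dspp had no entry in the promoter table. A match describes letters in a window, and binding was not measured.

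Across the study, arrays of a group correlated over probe sets at 0.992 to 0.9978, but down to 0.9831 in the group given PTHrP for 1 h, because its replicate 3 stood apart. The level of a gene is given as log2 intensity. Array medians lay between 6.38 and 6.51 on that scale and lower quartiles between 4.9 and 5.09. Of 9 markers of marrow stromal cells on the table all 9 passed the filter, with Col1a1 at a mean of 14.52, while Thy1 was at 5.45. In RNA of whole cultures, fewer cells of a type and less RNA per cell cannot be told apart.

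**Figure D1:**
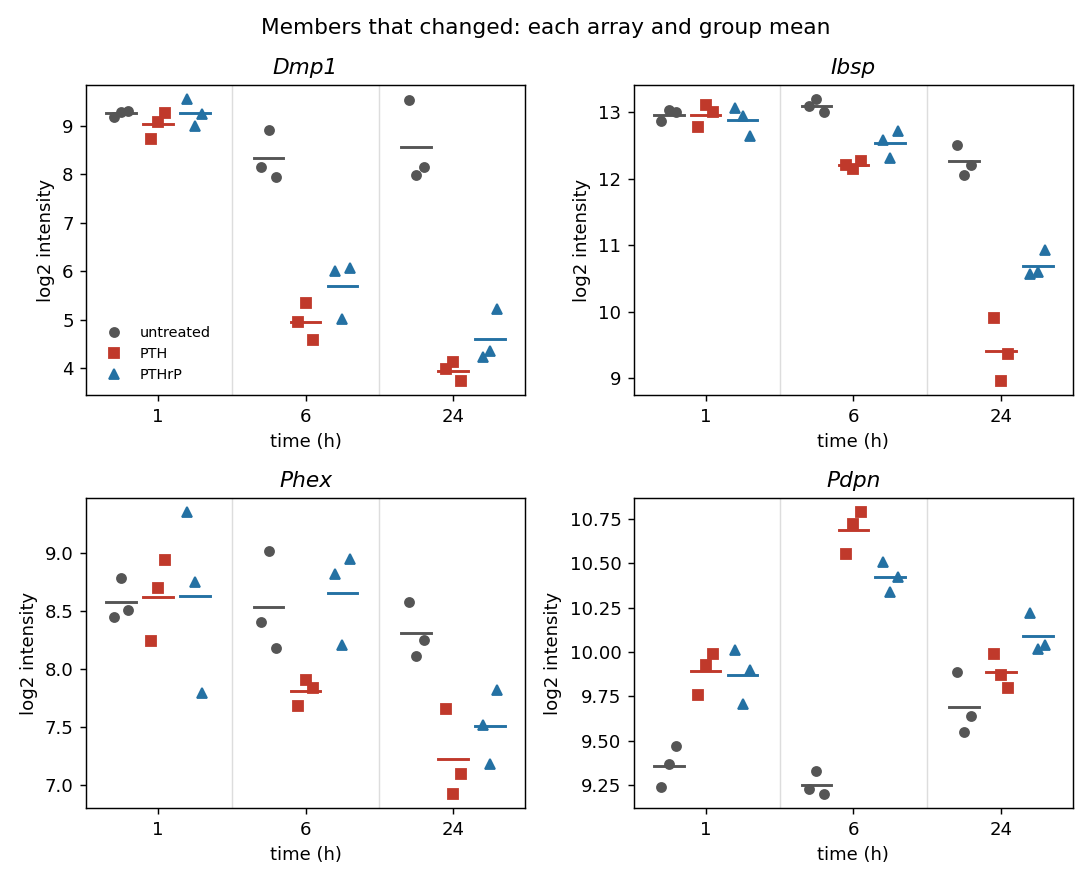
Log2 intensity of Dmp1, Ibsp, Phex and Pdpn on each array (points) and the mean of each group of 3 (lines), by time in hours, for untreated cells, PTH and PTHrP. Each panel has its own axis, which does not start at 0. Dmp1 lies at 7.94 or above on all untreated arrays and at 6.06 or below on all ligand arrays at 6 and 24 h, and Pdpn is highest with PTH at 6 h, from 10.55 to 10.79.

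Dmp1, Ibsp and Pdpn changed with both ligands at 6 h: Dmp1 fell most, Ibsp fell by less than 2-fold and Pdpn rose by over 2-fold. At 24 h Dmp1 and Ibsp were again lower with both ligands, the fall of Ibsp being larger than at 6 h in a test of the change, Phex also fell with PTH, and the rise of Pdpn passed the test only with PTHrP. At 1 h Pdpn rose with both ligands and the other 6 members did not pass. Mepe, which lay below the array medians, and Dspp and Sost, which lay near the lower quartiles, did not pass in any comparison. A difference passed where its adjusted p from limma was under 0.05. At 6 h, 3 of 7 members passed with PTH and 3 with PTHrP, against 29.3% and 20.9% of all genes tested. At 24 h, 3 of 7 passed with each ligand, against 11.6% and 6.1%, and at 1 h 1 of 7 with each, against 1.74% and 1.81%. The median difference over the 7 members was close to that over all genes: -0.13 against 0 with PTH at 6 h and -0.06 against 0 with PTH at 24 h. With PTHrP it was 0.06 against 0.03 at 6 h and -0.11 against -0.01 at 24 h. In each of these comparisons the median was the value of Mepe or Dspp, whose signal was low. It therefore does not describe the members that moved.

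Dmp1 encodes dentin matrix protein 1, a SIBLING protein of osteocytes needed for normal mineralization and phosphate balance. In untreated cells its log2 intensity was 9.18, 9.29 and 9.30 at 1 h in replicates 1 to 3. It was 8.73, 9.08 and 9.27 with PTH and 9.55, 9.0 and 9.25 with PTHrP at that time. At 1 h the arrays of both ligands overlapped those of untreated cells, and neither difference passed, at -0.23 ± 0.34 (SE, n = 3 per group) with PTH and 0.01 ± 0.34 with PTHrP.

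At 6 h Dmp1 lay at 8.14, 8.91 and 7.94 in untreated cells, at 4.96, 5.34 and 4.59 with PTH, and at 6.00, 5.02 and 6.06 with PTHrP. All 6 ligand arrays were below all 3 untreated arrays. Over all genes tested, ligand and untreated arrays were apart for 43.9% with PTH and 39.9% with PTHrP at 6 h. At 24 h these shares were 27% and 26.4%. The fall of Dmp1 at 6 h was 10.3-fold with PTH (95% interval 6.36 to 16.7, adjusted p = 2.13e-08) and 6.2-fold with PTHrP (3.83 to 10, adjusted p = 2.07e-06). At 24 h untreated cells gave 9.54, 7.99 and 8.15, PTH gave 3.99, 4.13 and 3.73, and PTHrP gave 4.23, 4.35 and 5.22. The ligand groups were again apart from untreated cells, whose own arrays spread widely, with an SD of 0.85. The fall was 24.4-fold with PTH (15.1 to 39.6, adjusted p = 4.13e-10), which left 4.09% of the untreated intensity. It was 15.5-fold with PTHrP (9.6 to 25.2, adjusted p = 1.57e-08), which left 6.43%. At 6 h 2 of the PTH arrays, and at 24 h all 3 PTH arrays and 2 of the PTHrP arrays, lay below log2 5, in the range of the lower quartile of the arrays, where intensities compress, so these folds can understate the change.

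Ordered by mean, the 9 groups fell into an upper set for Dmp1, made of all groups at 1 h and untreated cells at 6 and 24 h, and a lower set of the 4 ligand groups at 6 and 24 h. Neighbours within the upper set overlapped, from 9.27 with PTHrP at 1 h down to 8.33 in untreated cells at 6 h. The next group, PTHrP at 6 h, was at 5.70, and no array of it reached the untreated arrays. PTH at 6 h (4.96) and PTHrP at 24 h (4.60) followed with overlapping arrays, and PTH at 24 h (3.95) was lowest and apart from its neighbour. Of the 8 pairs of neighbours in this order, 6 overlapped.

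Ibsp encodes bone sialoprotein, a SIBLING protein that can nucleate hydroxyapatite and is made by osteoblasts as matrix begins to mineralize. At 1 h its log2 intensity was 12.87, 13.03 and 13.00 in untreated cells, 12.78, 13.11 and 13.01 with PTH, and 13.07, 12.94 and 12.65 with PTHrP. The 3 groups overlapped and the differences were 0.00 ± 0.17 and -0.08 ± 0.17. At 6 h it was 13.09, 13.20 and 13.00 in untreated cells, 12.20, 12.15 and 12.26 with PTH, and 12.59, 12.31 and 12.72 with PTHrP. Both ligand groups were below untreated cells with no overlap. Arrays were apart, in either direction, for 43.9% of all genes with PTH and 39.9% with PTHrP. Ibsp fell by 0.90 ± 0.17 on the log2 scale with PTH, which is 1.86-fold (adjusted p = 0.000163). It fell by 0.56 ± 0.17 with PTHrP, which is 1.47-fold (adjusted p = 0.0185). Without untreated replicate 2 or without PTHrP replicate 2 the PTHrP difference at 6 h did not pass, at -0.51 (adjusted p = 0.0732) and -0.44 (adjusted p = 0.113).

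At 24 h Ibsp was at 12.51, 12.06 and 12.21 in untreated cells, at 9.91, 8.95 and 9.36 with PTH, and at 10.56, 10.59 and 10.93 with PTHrP. The 3 groups were apart from one another, with PTH lowest. Over all genes, arrays were apart from untreated cells for 27% with PTH and 26.4% with PTHrP, and between the ligands for 12.4%. The fall was 7.24-fold with PTH (5.69 to 9.21, adjusted p = 9.94e-12) and 2.96-fold with PTHrP (2.33 to 3.77, adjusted p = 4.99e-07). In the order of group means the top 7 groups, from 13.10 in untreated cells at 6 h to 12.20 with PTH at 6 h, each overlapped the next. PTHrP at 24 h (10.70) and PTH at 24 h (9.41) lay below them and apart from each other.

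Untreated cells also moved over time, which bears on the reference for each ligand. Ibsp fell in them by 0.84 ± 0.17 log2 units from 6 to 24 h (adjusted p = 0.000468), and was 0.71 ± 0.17 lower at 24 h than at 1 h (adjusted p = 0.00279). Pdpn rose by 0.44 ± 0.10 from 6 to 24 h (adjusted p = 0.0012) and was 0.33 ± 0.10 higher at 24 than at 1 h (adjusted p = 0.0136). The latter did not pass without untreated replicate 1 of 1 h (0.27, adjusted p = 0.0775) or of 24 h (0.23, adjusted p = 0.122). Dmp1 in untreated cells was 0.93 ± 0.34 lower at 6 than at 1 h with no overlap of arrays, as was so for 23.1% of all genes. This difference did not pass (adjusted p = 0.199), but passed with only the arrays of the 2 groups (adjusted p = 0.0294). At 24 h Dmp1 was 0.69 ± 0.34 lower than at 1 h and did not pass (adjusted p = 0.159). That difference passed with array weights (-0.89, adjusted p = 0.0166) and the mean of the probe sets (-0.75, adjusted p = 0.0474). It also passed with another probe set (-0.85, adjusted p = 0.0334) and without untreated replicate 1 of 24 h (-1.18, adjusted p = 0.00779). The comparisons of untreated cells called 2 of 7 members at 24 against 6 h and 2 of 7 at 24 against 1 h, where 23.4% and 23.1% of all genes passed. At 6 against 1 h they called 0 of 7 with limma, against 2.27% of all genes. An unadjusted p under 0.05 was seen there for 1 of 7 members and for 1823 of 15711 genes.

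Mepe and Dspp, the other SIBLING genes measured, encode matrix extracellular phosphoglycoprotein, an osteocyte product with a peptide that inhibits mineralization, and dentin sialophosphoprotein, the main SIBLING protein of dentin. Mepe lay between 5.69 and 6.12 on all 27 arrays. Its group means ran from 5.82 with PTH at 6 h to 5.95 in untreated cells at 6 h, and every group overlapped its neighbour in that order. Dspp lay between 4.75 and 5.42, with 21 of 27 arrays at log2 5 or above, and its group means, from 5.05 to 5.26, also all overlapped their neighbours. Against untreated cells the differences of Mepe ran from -0.13 ± 0.10 (PTH at 6 h, adjusted p = 0.403) to 0.00 ± 0.10 (PTHrP at 24 h). Those of Dspp ran from -0.12 ± 0.14 (PTH at 6 h, adjusted p = 0.628) to 0.06 ± 0.14 (PTHrP at 6 h). The 95% intervals reached -0.35 for Mepe and -0.40 for Dspp. No detection calls were used here, so whether these signals exceed background was not tested, and the intervals apply to the measured signal.

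Phex encodes a membrane endopeptidase of osteoblasts and osteocytes, and its loss causes X-linked hypophosphataemia. At 1 h its log2 intensity was 8.45, 8.79 and 8.51 in untreated cells, 8.24, 8.70 and 8.94 with PTH, and 9.36, 8.75 and 7.79 with PTHrP. The PTHrP arrays at 1 h spanned the other groups, with the lowest value on the replicate that stood apart. At 6 h it was 8.41, 9.02 and 8.18 in untreated cells, 7.68, 7.91 and 7.84 with PTH, and 8.82, 8.21 and 8.95 with PTHrP. The PTH arrays lay below the untreated arrays, but the difference of -0.72 ± 0.29 did not pass (adjusted p = 0.0645). Arrays of the 2 groups were apart for 43.9% of all genes tested in this comparison. The same difference passed with array weights (-0.80, adjusted p = 0.00347), with only the arrays of the 2 groups (adjusted p = 0.0148) and without untreated replicate 3 (-0.90, adjusted p = 0.04).

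At 24 h Phex was at 8.58, 8.11 and 8.25 in untreated cells, at 7.66, 6.92 and 7.09 with PTH, and at 7.52, 7.18 and 7.82 with PTHrP. Both ligand groups lay below untreated cells with no overlap, as was so for 27% of genes with PTH and 26.4% with PTHrP. Phex fell 2.13-fold with PTH (1.40 to 3.22, adjusted p = 0.0132), and its difference of -0.81 ± 0.29 with PTHrP did not pass (adjusted p = 0.121). The PTH call was lost without untreated replicate 1 (-0.96, adjusted p = 0.0698), PTH replicate 2 (-0.94, adjusted p = 0.0697) or PTH replicate 3 (-1.02, adjusted p = 0.0536). The PTHrP difference passed with array weights (-0.76, adjusted p = 0.0155) and with only the arrays of the 2 groups (adjusted p = 0.0147).

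Sost encodes sclerostin, the osteocyte inhibitor of Wnt signalling that binds the co-receptors Lrp5 and Lrp6. Its brightest probe set lay between 4.71 and 5.92, and 18 of 27 arrays reached log2 5. Untreated cells gave 4.86, 4.71 and 5.05 at 24 h, PTH gave 4.95, 5.35 and 5.30, and PTHrP gave 5.09, 5.02 and 4.97. The groups overlapped, and the difference with PTH was 0.33 ± 0.17 (adjusted p = 0.25). With array weights it was 0.40 and passed (adjusted p = 0.0171). At 6 h 1 PTH array, replicate 3, was at 5.92 and the other 2 at 5.12 and 4.99. The other Sost probe set was below log2 5 on all 27 arrays, from 4.10 to 4.60, and correlated with the brightest at -0.427 over the arrays, so the 2 did not track each other. At 24 h this other probe set was lower with PTH, at a mean of 4.26 against 4.56 in untreated cells, and was not tested. The name osteocyte marker comes from the genes: the labels call the cells marrow stromal, and of the osteocyte genes in the set Dmp1, Phex and Pdpn were well above the filter floor of log2 5 in untreated cells at 1 h (means of 9.26, 8.58 and 9.36), while Mepe and Sost were at 5.91 and 4.95. Levels of different probe sets are not compared.

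**Figure D2:**
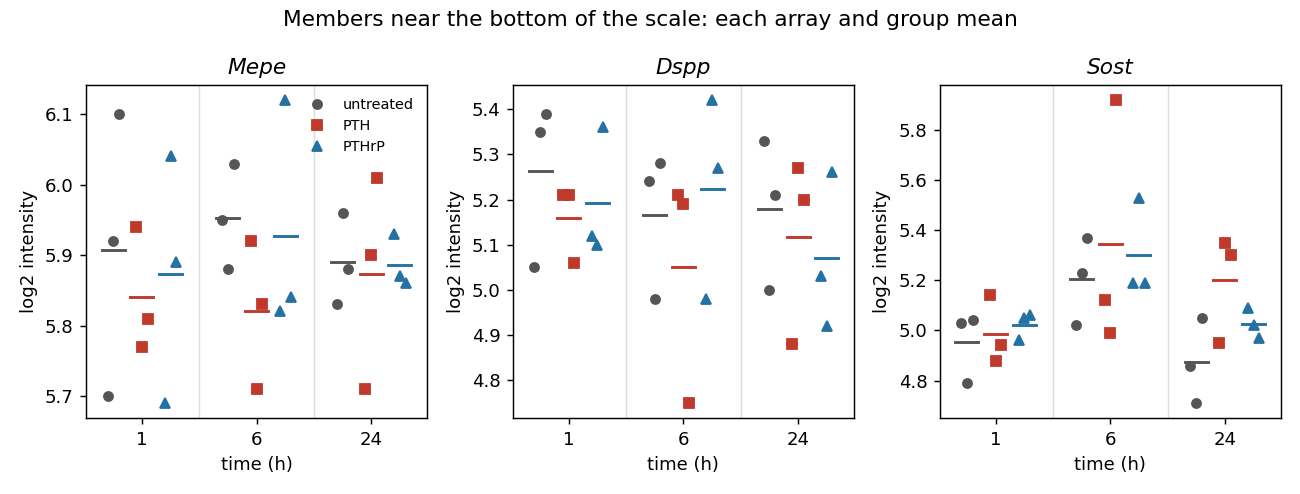
Log2 intensity of Mepe, Dspp and Sost on each array (points) and the mean of each group of 3 (lines), by time in hours, for untreated cells, PTH and PTHrP. The axes are enlarged and do not start at 0: Mepe spans 5.69 to 6.12, Dspp 4.75 to 5.42 and Sost 4.71 to 5.92, and each group overlaps its neighbour in the order of means.

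Pdpn encodes podoplanin, a mucin-like membrane glycoprotein that marks early osteocytes and takes part in forming their dendrites. It was the only member that passed at 1 h with either ligand. Its log2 intensity at 1 h was 9.24, 9.37 and 9.47 in untreated cells, 9.76, 9.93 and 9.99 with PTH, and 10.01, 9.71 and 9.90 with PTHrP. Every ligand array was above every untreated array. Over all genes tested, arrays were apart at 1 h for 17.3% with PTH and 12.8% with PTHrP. Pdpn rose by 0.53 ± 0.10 with PTH (1.44-fold, adjusted p = 0.0014) and by 0.51 ± 0.10 with PTHrP (1.43-fold, adjusted p = 0.00208). Without PTHrP replicate 3, the array that stood apart, the latter was 0.50 (adjusted p = 0.00615). With only the arrays of the 2 groups it was 0.51 and did not pass (adjusted p = 0.146).

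At 6 h Pdpn was at 9.23, 9.33 and 9.20 in untreated cells, at 10.55, 10.72 and 10.79 with PTH, and at 10.51, 10.34 and 10.42 with PTHrP. The 3 groups were apart from one another. Over all genes, arrays were apart from untreated cells for 43.9% with PTH and 39.9% with PTHrP, and between the ligands for 25%. Pdpn rose 2.71-fold with PTH (2.36 to 3.11, adjusted p = 1.88e-11) and 2.26-fold with PTHrP (1.96 to 2.59, adjusted p = 1.61e-09). At 24 h it was at 9.89, 9.55 and 9.64 in untreated cells, at 9.99, 9.87 and 9.80 with PTH, and at 10.22, 10.02 and 10.04 with PTHrP. The PTH arrays overlapped untreated cells and the PTHrP arrays did not, as was so for 26.4% of genes with PTHrP. The difference was 0.20 ± 0.10 with PTH (adjusted p = 0.237) and 0.40 ± 0.10 with PTHrP (1.32-fold, adjusted p = 0.00916). The PTHrP call at 24 h was lost without untreated replicate 2 (0.33, adjusted p = 0.0837), untreated replicate 3 (0.38, adjusted p = 0.0538) or PTHrP replicate 1 (0.34, adjusted p = 0.0801). In the order of group means PTH at 6 h (10.69), PTHrP at 6 h (10.43) and PTHrP at 24 h (10.10) were each apart from the next, and 4 of 8 pairs of neighbours overlapped.

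**Figure D3:**
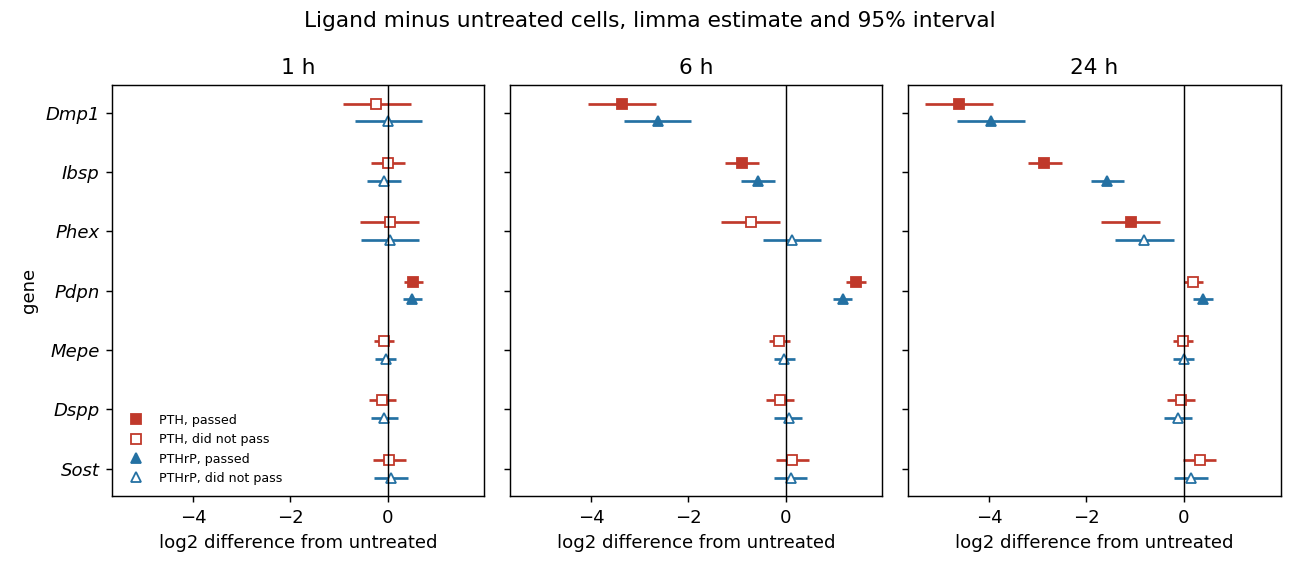
Log2 difference of each ligand from untreated cells of the same time for the 7 members, at 1, 6 and 24 h, with the 95% interval of the limma fit (bars). Filled symbols passed the test and open ones did not. Dmp1 reaches -4.61 with PTH at 24 h, while Pdpn is at 1.44 with PTH at 6 h and at 0.20 at 24 h.

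The time course of each member was tested as the change of a ligand's difference from untreated cells. From 1 to 6 h with PTH, the difference of Dmp1 moved by -3.14 ± 0.48 (adjusted p = 2.98e-05), that of Ibsp by -0.90 ± 0.24 (adjusted p = 0.0085) and that of Pdpn by 0.91 ± 0.14 (adjusted p = 2.78e-05). These 3 of 7 members stand beside 18.5% of all genes. From 6 to 24 h with PTH 2 of 7 passed, against 20.4% of all genes: Ibsp moved by a further -1.96 ± 0.24 and Pdpn back by -1.24 ± 0.14. The further change of Dmp1 from 6 to 24 h did not pass, at -1.25 ± 0.48 with PTH (adjusted p = 0.0681) and -1.33 ± 0.48 with PTHrP (adjusted p = 0.0725). With PTH it passed without untreated replicate 2 or 3 of 24 h, untreated replicate 2 of 6 h or PTH replicate 3 of 6 h (-1.54 to -1.43, adjusted p from 0.0272 to 0.0476). With PTHrP it passed without untreated replicate 2 of 24 h or of 6 h, PTHrP replicate 3 of 24 h or PTHrP replicate 2 of 6 h (-1.66 to -1.61, adjusted p from 0.0256 to 0.0366). With PTHrP, 2 of 7 passed from 1 to 6 h (12.2% of all genes) and 2 of 7 from 6 to 24 h (12.1%). Ibsp and Pdpn were the members whose difference passed as changed after 6 h with both ligands, Ibsp away from 0 and Pdpn towards it. The PTH and PTHrP comparisons share the untreated arrays, so their values are given side by side and were not correlated.

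Between the ligands, 7 members were compared at each of 3 times. At 24 h 1 of 7 passed, against 1.16% of all genes. This was Ibsp, which was 1.29 ± 0.17 higher with PTHrP than with PTH, or 2.44-fold (1.92 to 3.11, adjusted p = 7.89e-05). Its arrays were apart, as was so for 12.4% of genes. Phex and Pdpn, which passed against untreated cells at 24 h with 1 ligand each, differed between the ligands by 0.28 ± 0.29 (-0.32 to 0.88, adjusted p = 0.931) and 0.21 ± 0.10 (0.01 to 0.41, adjusted p = 0.492). At 6 h 0 of 7 passed with limma, against 7.62% of all genes. An unadjusted p under 0.05 was seen for 3 of 7 members and for 3205 of 15711 genes. Phex was 0.85 ± 0.29 higher with PTHrP (interval 0.25 to 1.45, adjusted p = 0.0764), Dmp1 0.73 ± 0.34 higher (0.04 to 1.43, adjusted p = 0.213) and Pdpn 0.26 ± 0.10 lower (-0.46 to -0.06, adjusted p = 0.104). The Phex, Pdpn and Ibsp arrays of the ligands were apart at 6 h, as was so for 25% of genes. With array weights 4 of 7 passed at 6 h, namely Dmp1, Ibsp, Phex and Pdpn, in the directions of the unweighted values. That setting called 2751 genes higher and 1789 lower of all 15711 at 6 h. At 1 h 0 of 7 members and 0% of all genes passed, and 0 members and 632 genes had an unadjusted p under 0.05.

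The probe sets used above were 1443745_s_at for Dmp1, 1417484_at for Ibsp, 1421979_at for Phex, 1419309_at for Pdpn, 1421650_at for Mepe, 1422246_at for Dspp and 1421245_at for Sost. Other probe sets of the same genes were read in a fit over 35371 probe sets. Both other Dmp1 probe sets correlated with the brightest at 0.988 over 27 arrays, and with PTH at 24 h they gave -3.22 ± 0.28 and -3.25 ± 0.28 where the brightest gave -4.61 ± 0.34. Their untreated means, 7.57 and 7.48, were nearer the bottom of the scale than that of the brightest, 8.56. The other Ibsp probe set correlated at 0.994 and gave -2.89 ± 0.20 with PTH and -1.69 ± 0.20 with PTHrP at 24 h. For Phex the probe sets disagreed in size: the other one, between 5.22 and 6.32 on all arrays, correlated at 0.747 and gave -0.06 ± 0.15 with PTH at 6 h and -0.37 ± 0.15 at 24 h. Neither passed (adjusted p = 0.844 and 0.153), so the call on Phex rests on the brightest probe set.

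**Figure D4:**
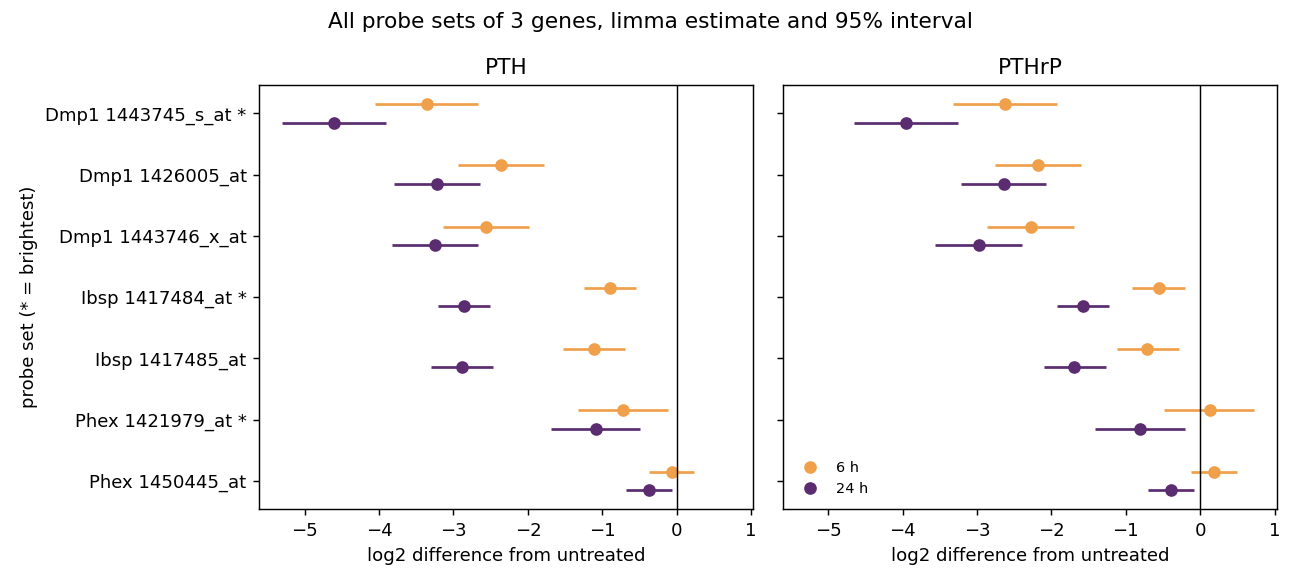
Log2 difference from untreated cells at 6 and 24 h for every probe set of Dmp1, Ibsp and Phex, with the 95% interval (bars), for PTH and PTHrP. An asterisk marks the brightest probe set of a gene. With PTH at 24 h the Dmp1 probe sets give -4.61, -3.22 and -3.25, the Ibsp probe sets -2.86 and -2.89, and the Phex probe sets -1.09 and -0.37.

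Over the 9 group means, which share their arrays and times, Ibsp and Phex correlated at 0.932, Dmp1 and Phex at 0.833, and Dmp1 and Ibsp at 0.803, while Pdpn and Dmp1 correlated at -0.638. Part of the likeness was also seen between replicates. After the group means were removed, Ibsp and Phex correlated at 0.784 over the 27 arrays, and 0.0891% of 15710 other genes correlated as highly or higher with Ibsp. Dmp1 and Phex correlated at 0.589 (0.407% of genes as high or higher with Dmp1) and Dmp1 and Ibsp at 0.505 (1.39%). Pdpn, which moved the other way between groups, correlated with Dmp1 at 0.539 within groups, where 6.23% of genes were as high or higher with Pdpn. Within groups Pdpn also correlated with Ibsp at 0.457 and with Phex at 0.504. The highest array of a group was the same for Dmp1, Ibsp and Phex in 5 of 9 groups, and the lowest in 5 of 9, counts that were not taken for other genes. In untreated cells at 24 h, for example, replicate 1 was highest and replicate 2 lowest for these 3 genes and for Pdpn.

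The genes most like each changed member were taken as the 5 with the highest correlation over the 9 group means. For Dmp1 they were Spns2, a sphingosine-1-phosphate transporter (0.993, and 0.97 over 27 arrays), Slc13a5, a citrate transporter (0.99 and 0.978), Fhod1, Lzts1 and Sema3b (0.979 and 0.96). With PTH at 24 h Slc13a5 differed from untreated cells by -2.33 and Sema3b by -1.57. For Ibsp they were Olfml3 (0.997 and 0.99), Hr, Car3, a carbonic anhydrase (0.988 and 0.972), Mest and Omd, the gene of osteomodulin, a bone matrix proteoglycan (0.986 and 0.97). Car3 differed by -2.95 and Omd by -3.08 with PTH at 24 h. For Phex they were Krt6b, Itga6, Zfp185, Cgref1 and Col11a2, of which Krt6b correlated at 0.979 over groups and only 0.304 over arrays. For Pdpn they were Dnajb2 (0.993 and 0.94), Dctn4, Sdc1, the gene of syndecan 1 (0.975 and 0.95), Cd209d and Cdc42ep4. Sdc1 differed by 1.47 with PTH at 6 h and 0.46 at 24 h. Cd209d correlated at 0.974 over groups and 0.426 over arrays, and differed by at most 0.19 in the 4 ligand comparisons at 6 and 24 h.

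Genes of the osteoblast lineage and its matrix mostly fell as well. Of 13 tested on that list, 1 rose and 7 fell at 6 h with each ligand, while at 24 h 11 fell with PTH and 7 with PTHrP, and none rose at 24 h. Over all genes tested, 17.9% fell and 11.4% rose with PTH at 6 h, 12.2% and 8.7% with PTHrP at 6 h, 5.96% and 5.69% with PTH at 24 h, and 3.02% and 3.09% with PTHrP at 24 h. The median difference of the list was -1.08 with PTH at 6 h and -0.82 at 24 h, against 0 over all genes. Sp7, the gene of the osteoblast factor osterix, fell 3.61-fold with PTH at 6 h and 2.3-fold with PTHrP. Panx3, a pannexin channel gene of osteoblasts, fell 7.27-fold with PTH at 6 h and 10.1-fold at 24 h. Ifitm5, a bone-restricted membrane protein gene, fell 3.09-fold with PTH at 6 h. Omd fell 8.46-fold and Postn, the gene of periostin, 6.51-fold with PTH at 24 h. Pth1r itself fell 2.17-fold with PTH at 6 h (adjusted p = 1.21e-09) and 1.31-fold with PTHrP (adjusted p = 0.00337). At 24 h it was 1.76-fold lower with PTH (adjusted p = 9.57e-07), and with PTHrP the difference was -0.06 ± 0.09. Of this list 5 of 13 were higher with PTHrP than with PTH at 24 h, namely Panx3, Omd, Sp7, Pth1r and Col1a1, and none was lower. Over all 15711 genes, 132 were higher and 50 lower in this comparison.

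Of 6 enzymes and transporters of mineralization, 2 rose and 1 fell with PTH at 6 h, and 3 fell and none rose at 24 h, against 29.3% and 11.6% of all genes in either direction. With PTHrP 2 rose and 2 fell at 6 h and 2 fell at 24 h, against 20.9% and 6.1%. Smpd3, a sphingomyelinase needed for bone mineralization, fell 35.7-fold with PTH and 18-fold with PTHrP at 6 h, and 7.41-fold and 5.19-fold at 24 h. Alpl, the gene of tissue-nonspecific alkaline phosphatase, differed by -0.17 ± 0.08 with PTH at 6 h (adjusted p = 0.152) and fell 1.96-fold at 24 h. Mgp, the gene of matrix Gla protein, an inhibitor of calcification, rose 2.62-fold with PTH at 6 h and fell 1.32-fold at 24 h.

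Of 13 receptors, kinases and proteases that act on SIBLING proteins, 3 rose and 4 fell with PTH at 6 h, and 2 rose and 4 fell at 6 h with PTHrP, against 29.3% and 20.9% of all genes in either direction. At 24 h 2 were higher and 4 lower with PTH, while PTHrP raised 2 and lowered 1, against 11.6% and 6.1%. Fam20c, the kinase that phosphorylates SIBLING proteins, fell 1.88-fold with PTH and 2.15-fold with PTHrP at 6 h. At 24 h it fell 1.63-fold with PTH, while its difference with PTHrP was -0.10 ± 0.09 (adjusted p = 0.747). Fam20a, which encodes a pseudokinase partner of Fam20c, fell 2.28-fold with PTH at 6 h. Itgb3, the integrin beta 3 subunit that pairs with alpha v to bind RGD sites, rose 1.73-fold with PTHrP at 6 h. Mmp3, the gene of stromelysin 1, rose 1.58-fold with PTH at 6 h and 2.7-fold with PTHrP at 24 h. The median of this list, 0.05 with PTH at 6 h and -0.06 at 24 h, was near that of all genes, 0 in both.

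Of 15 other osteocyte genes tested, 4 rose and 5 fell with PTH at 6 h, 3 rose and 5 fell with PTHrP at 6 h, 1 rose and 5 fell with PTH at 24 h, and 4 fell and none rose with PTHrP at 24 h. The shares of all genes that passed in either direction were 29.3%, 20.9%, 11.6% and 6.1% in these comparisons. Mef2c, a transcription factor known to act on a Sost enhancer, fell 12.9-fold with PTH and 7.08-fold with PTHrP at 6 h. Tnfsf11, the gene of the osteoclast factor RANKL, rose 40.7-fold with PTH at 6 h, and Tnfrsf11b, the gene of its decoy receptor osteoprotegerin, fell 8.56-fold. Of 10 targets of sclerostin and related Wnt antagonists, 3 rose and 2 fell with PTH at 6 h and 2 rose with PTHrP. At 24 h 1 was higher and 1 lower with PTH, while with PTHrP 2 were higher and 1 lower. Sfrp1, a secreted Wnt antagonist, rose 3.43-fold with PTH and 2.74-fold with PTHrP at 6 h, and Sfrp4 rose 2.74-fold with PTH. Of 6 partners of podoplanin tested, 3 fell and none rose with PTH at 6 h, against 29.3% of all genes in either direction. With PTHrP at 6 h 3 fell and 1 rose, against 20.9%. Cd44, a membrane partner of podoplanin, fell 1.43-fold with PTH and 1.34-fold with PTHrP at 6 h, and Msn, the gene of moesin, fell 1.22-fold and 1.2-fold. Rhoa, a small GTPase of the actin cytoskeleton, was the gene that rose with PTHrP, 1.17-fold (adjusted p = 0.0122).

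Markers of other cell types moved with some of these results. Over all genes tested, 5.96% fell and 5.69% rose with PTH at 24 h, and 3.02% and 3.09% with PTHrP. Of 6 adipocyte markers tested, 3 fell with PTH at 24 h, namely Adipoq by 0.86 ± 0.26, Cidec by 0.64 ± 0.16 and Pparg by 0.33 ± 0.11, when Dmp1, Ibsp and Phex were also lower. The summed linear intensity of the 6 markers was 13550 to 14550 with PTH at 24 h and 13650 to 16020 in untreated cells. That sum is weighted to Lpl, the brightest at a mean of 13.14. The median difference of the 6 was -0.6, against 0 over all genes. Of 7 chondrocyte markers tested, 2 fell at 24 h with each ligand, Col10a1 by 1.12 ± 0.15 and Col2a1 by 0.52 ± 0.10 with PTH, and the summed intensity was 781.2 to 876 against 935.3 to 999.5. Sox9 on the same list was higher at 1 h, when Pdpn rose, by 1.06 ± 0.09 with PTH (adjusted p = 2.01e-08) and 0.92 ± 0.09 with PTHrP (adjusted p = 2.54e-07). It was also higher at 6 h, by 0.25 ± 0.09 and 0.27 ± 0.09, as was Col2a1 with PTHrP by 0.34 ± 0.10 (adjusted p = 0.0216). Of 9 stromal markers, 2 fell and 1 rose with PTH at 24 h, with a summed intensity of 46960 to 49810 against 59950 to 61310, and Col1a1 fell 1.69-fold. That sum is weighted to the brightest markers, Col1a1 and Col1a2, at means of 14.52 and 14.47. The median level of the list was 11.81 with PTH and 11.46 in untreated cells, and its median difference was -0.09 against 0 over all genes. The part of these markers in the results was not tested. Of 10 macrophage markers, 8 passed the filter, with Csf1r at a mean of 7.87, while Ptprc and Itgam did not. At 6 h 1 of the 8 was higher with PTH and none was called with PTHrP, against 29.3% and 20.9% of all genes in either direction. At 24 h 1 was higher and 1 lower with PTH, and 1 higher with PTHrP, against 11.6% and 6.1%. Of 8 endothelial and lymphatic markers, a lineage that also makes podoplanin, 5 passed the filter, with Kdr at a mean of 6.89. Prox1 and Lyve1 did not, at means of 3.88 and 4.06, nor did Tek at 4.82. None of the 5 was called with a ligand.

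A check of RNA quality also moved slightly with the ligands. For Actb, the beta-actin gene, the log2 excess of the 3' over the 5' probe set was 0.25 ± 0.05 without ligand and 0.34 ± 0.01 with PTH at 6 h (SD, n = 3). At 24 h the excess was 0.38 ± 0.01 in untreated cells, 0.42 ± 0.01 with PTH and 0.44 ± 0.01 with PTHrP. In exact permutation tests of 3 arrays against 3, for which 0.1 is the smallest p possible, PTH at 1 and 6 h and both ligands at 24 h gave p = 0.1, with an excess at 1 h of 0.23 ± 0.02 in untreated cells and 0.27 ± 0.02 with PTH. For Gapdh the same excess at 6 h was -0.20 ± 0.02 in untreated cells, -0.17 ± 0.02 with PTH and -0.15 ± 0.03 with PTHrP, with p = 0.1 for both in the exact test, and at 24 h it was -0.21 ± 0.01 both in untreated cells and with PTH. The part of RNA quality in the results was not tested.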

How the data were processed

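Total RNA of 27 samples was hybridised to 1-colour Affymetrix arrays. The authors deposited linear intensity values, made per probe set with RMA, per the submitters' processing notes, and were normalized again for the deposit, per the series' design text, so they can differ from those of the publication. RMA makes array distributions alike, which would hide a change of most transcripts in 1 direction. Precision is limited by how many arrays there are. The software version and background model were not given in the sources used here.

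Log2 was taken, and 64 control probe sets were left out. A platform annotation table gave 34945 of the remaining probe sets 1 symbol, and 34754 of these matched RefSeq by gene identifier. Each gene was represented by its brightest probe set, and 15711 genes at log2 5 or above on at least 3 arrays were tested. limma 3.58.1 in R 4.3.3 (lmFit, eBayes) fitted 9 group means to all arrays for 16 two-sided comparisons, with 18 residual and 5.54 prior degrees of freedom. The adjusted p is a Benjamini-Hochberg value over all genes, with a threshold of 0.05, and ± after a difference is the SE of the fit. The script was tested on simulated data.

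The members, and 12 lists with 122 genes of which 98 were tested, were chosen with earlier results of these data known. Named besides the members are up to 3 genes of each list with the largest differences past the threshold per ligand at 6 and 24 h, the 5 genes most like each changed member, Pth1r, and Actb and Gapdh as checks. Alpl and Fam20c at times outside that rule, Col1a1 as a control, Rhoa and the marker genes that changed were named after their values were seen. Alternatives were 2 other filters, 16 added before log2, quantile and cyclic loess normalization, array weights, a variance trend, only the arrays compared, a replicate block, other probe sets, their mean, and leaving out each array. Spp1 is not reported here.

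Every group has replicates 1 to 3 in the labels. Of 9 pairs of groups of the same time, 1 had correlations above 0.1 for all its same-numbered arrays once group means were subtracted, so the numbers were not taken to pair the samples.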

Additional observations from a re-analysis of the deposited data

Results flagged for a closer look

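The results below are given because the effect of a ligand differed between 2 times in a test of the difference itself, adjusted over all genes with limma.

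Dmp1, the osteocyte matrix protein gene, had an effect of PTH that changed from 1 to 6 h by -3.14 ± 0.48 (adjusted p = 2.98e-05) and an effect of PTHrP that changed by -2.64 ± 0.48 (adjusted p = 0.000405). At 1 h its arrays overlapped those of untreated cells with both ligands. All ligand arrays at 6 h were below all untreated arrays. Arrays were apart there, in either direction, for 43.9% of all genes with PTH and 39.9% with PTHrP.

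Ibsp, the gene of bone sialoprotein, had an effect of PTH that changed by -0.90 ± 0.24 from 1 to 6 h (adjusted p = 0.0085) and by -1.96 ± 0.24 from 6 to 24 h (adjusted p = 1.4e-06). Its effect of PTHrP changed by -1.01 ± 0.24 from 6 to 24 h (adjusted p = 0.00554). Untreated cells fell in Ibsp over the same interval, and the changes given are beyond that fall.

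Pdpn, the gene of podoplanin, changed in both directions. Its effect of PTH moved by 0.91 ± 0.14 from 1 to 6 h (adjusted p = 2.78e-05) and by -1.24 ± 0.14 from 6 to 24 h (adjusted p = 3.53e-07). Its effect of PTHrP moved by 0.66 ± 0.14 from 1 to 6 h (adjusted p = 0.00173) and by -0.77 ± 0.14 from 6 to 24 h (adjusted p = 0.000398). Untreated cells rose in Pdpn from 6 to 24 h, which is part of the second change. Without PTHrP replicate 3 of 1 h, which stood apart, the PTHrP change from 1 to 6 h was 0.68 (adjusted p = 0.00162) for Pdpn and -2.65 (adjusted p = 0.000487) for Dmp1.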

How the results depend on the processing

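No called difference of a member reversed under any alternative. Of 160 counts of members under alternatives other than leaving out an array, 153 stayed within 1.5 times the reported count. The exceptions were as follows. With only the arrays compared, PTHrP against untreated cells at 1 h called 0 members, PTHrP against PTH at 6 h called 1, and untreated cells at 6 against 1 h called 1. Over all 15711 genes that setting called 98 higher and 5 lower, 366 and 403, and 230 and 354 in these comparisons. With array weights, PTHrP against PTH called 4 at 6 h and 2 at 24 h, and the change of the PTHrP effect from 6 to 24 h called 4. Over all 15711 genes, array weights called 2751 higher and 1789 lower, 795 and 478, and 2562 and 2417 in these comparisons. The fit without weights called 699 and 498, 132 and 50, and 1112 and 791. With quantile normalization, PTHrP against PTH at 6 h called 1, where 1147 genes were higher and 594 lower of 15667. Leaving out 1 array gave 0 to 1 members for PTHrP against PTH at 6 h, with 1 (Phex) without PTHrP replicate 2, and 1 to 2 for untreated cells at 24 against 1 h, with 1 without untreated replicate 1 of 1 h. With the replicate block, PTH at 6 h called 3 members and Dmp1 gave -3.36 (adjusted p = 1.38e-06), and the block changed no count of members. Dmp1 at 24 h with PTH ran from -4.61 to -3.22 over the alternatives and from -4.89 to -4.12 when arrays were left out. Ibsp ran from -2.89 to -2.83 and from -3.11 to -2.63. Low intensity limits Dspp and Sost, whose signal was near the filter floor, and Mepe, whose signal lay between the floor and the array medians.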
